A study of Homo sapiens with 6 samples.

Results

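PARD6A and the other genes of the apical-basal polarity complexes were followed in CAL-27, a human tongue squamous carcinoma cell line, after knockdown of XBP-1s. The set held 10 genes, taken by name: PARD6A, PARD6B, PARD6G, PARD3, PRKCI, PRKCZ, CDC42, LLGL2, SCRIB and CRB3. They made up 10 of the 19740 genes with a symbol on the array and 14 of its 34127 probes. RNA was taken from 3 samples that carried a control shRNA (shCtrl) and 3 in which an shRNA targeted XBP-1s (shXBP-1s), each on its own 1-colour Agilent array. Slides were inferred here from arrays that shared a scan time in their headers. By this rule slide 2 held all 3 shXBP-1s arrays and shCtrl replicate 1, and slide 1 held shCtrl replicates 2 and 3. Group and slide therefore largely coincide. Cells of both groups carried an shRNA, and the study describes the knockdown cells as stably transduced. Whether the lines were pools or clones, and whether the replicates were separate cultures, is not given in the sources used here, so the p-values measure the spread between these samples, which may be technical.

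Epithelial cells keep an apical and a basolateral side through 3 groups of proteins that hold each other in place. The PAR complex, in which PAR-3 (PARD3) and PAR-6 (PARD6A, PARD6B, PARD6G) scaffold an atypical protein kinase C (PRKCI, PRKCZ) that is switched on by the GTPase CDC42, and the Crumbs complex, with the membrane protein CRB3, mark the apical side. The Scribble module, with SCRIB and the giant larvae homologue LLGL2, marks the basolateral side, and atypical PKC phosphorylates LLGL proteins to keep them out of the apical domain. XBP-1s is the transcription factor made when the endoplasmic reticulum stress sensor IRE1α splices XBP1 mRNA, and it acts on promoters that hold unfolded protein response and endoplasmic reticulum stress elements.

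Because such elements are defined by letters, the 250 bases before the RefSeq start site were searched for the members with a promoter record (GRCh38.p14, 5′ to 3′ on the gene's strand). PARD6A (chr16:67660710-67660959, + strand) is shown since its fitted fall was the largest among the members, PARD6G (chr18:80247515-80247764, - strand) since it was the family member that did not fall, and CDC42 (chr1:22052459-22052708, + strand) since it holds the same long match as PARD6A, as does a window of PRKCZ. Capitals mark TGACGTCA, TGACGT or CCACG on either strand, the last being read as CGTGG on the opposite one.
PARD6A: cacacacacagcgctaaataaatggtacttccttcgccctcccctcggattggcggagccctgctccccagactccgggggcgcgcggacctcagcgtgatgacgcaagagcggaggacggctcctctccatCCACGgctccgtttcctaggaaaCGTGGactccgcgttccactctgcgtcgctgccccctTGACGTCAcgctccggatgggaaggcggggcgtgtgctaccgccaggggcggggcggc
PARD6G: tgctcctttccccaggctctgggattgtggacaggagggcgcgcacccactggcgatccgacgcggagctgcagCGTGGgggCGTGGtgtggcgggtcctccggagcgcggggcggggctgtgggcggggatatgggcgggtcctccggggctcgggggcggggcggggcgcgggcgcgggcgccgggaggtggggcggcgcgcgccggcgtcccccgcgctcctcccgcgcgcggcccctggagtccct
CDC42: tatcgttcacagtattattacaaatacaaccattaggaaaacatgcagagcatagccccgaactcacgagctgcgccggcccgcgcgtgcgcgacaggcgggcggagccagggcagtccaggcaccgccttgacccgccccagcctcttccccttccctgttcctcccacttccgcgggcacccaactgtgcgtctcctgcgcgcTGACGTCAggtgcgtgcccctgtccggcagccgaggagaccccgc

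The palindrome TGACGTCA, the full cAMP-response element, began 58 bases before the PARD6A start, 45 bases before the CDC42 start and 52 bases before 1 of the 4 PRKCZ starts. Of 35116 promoter windows of the same length, 1.65% held it, and 7.1% held its part TGACGT, which lies inside it on both strands. CCACG, the outer part of the endoplasmic reticulum stress element, occurred 118 and 95 bases before the PARD6A start and 176 and 168 bases before the PARD6G start, once each in 2 of the PRKCZ windows (237 and 120 bases before the start), and 33.5% of all windows held it. TGACGTGG, the core of the unfolded protein response element, was in 0.612% of all windows and in none of those listed for PARD6A, PARD6G, CDC42, PRKCI, PRKCZ and CRB3. The 4-letter core ACGT, contained in both of the longer elements, was in 29.3% of all windows. It began 96 and 56 bases before the PARD6A start and 43 bases before the CDC42 start. It also began 50 bases before 1 PRKCZ start and 33 bases before the CRB3 start, and the PARD6G and PRKCI windows lacked it. These matches describe letters and not bound sites. The motif that the study found enriched in XBP-1 peaks was not searched for. No promoter is shown for PARD6B, PARD3, LLGL2 and SCRIB.

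A probe's level is given on the log2 scale as its signal over the 75th percentile of its array, so that 0 is a spot as bright as that percentile, with SD over 3 arrays. Levels of different probes are not comparable, since probes differ in affinity. On the 6 arrays, 82.1% to 84.8% of spots exceeded background clearly (Agilent's well above background flag), and all 14 member probes were well above background on every array and were tested. XBP1, measured by a probe whose place relative to the spliced-out intron was not analysed here, fell from 1.87 ± 0.02 to -0.52 ± 0.02 (log2 fold change -2.39, SE 0.04, limma adjusted p = 2.81e-07), and all 3 shXBP-1s arrays lay below all 3 shCtrl arrays. In bulk RNA, fewer cells of a type and less RNA per cell cannot be told apart. The 8 squamous epithelial markers examined (KRT5, KRT14, KRT17, KRT6A, TP63, DSG3, CDH1, EPCAM) were well above background on all 6 arrays, and their summed level, in multiples of the 75th percentile, was 58.9 to 61.1 in shCtrl and 73.9 to 81.6 in shXBP-1s. Of these, 6 rose, while CDH1, the E-cadherin of adherens junctions, and EPCAM did not pass the test (log2 fold changes 0.13 and 0.01). The summed level of 4 leukocyte markers was 4.39 to 6.27 in shCtrl and 3.05 to 3.29 in shXBP-1s, that of 5 fibroblast markers 0.945 to 1.04 and 0.608 to 0.631, and that of 3 endothelial markers 0.197 to 0.259 and 0.244 to 0.260. COL3A1 was not well above background on any array, and 4 leukocyte, 4 fibroblast and 3 endothelial markers were on all 6. Such sums rest on the brightest probes, and the lists did not move as one. Among leukocyte markers CD14 fell (log2 fold change -0.84), and CD3E (-0.04) and the brightest PTPRC probe (0.05) did not pass the test. A dimmer PTPRC probe rose by 0.40 (limma adjusted p = 0.0380). Among fibroblast markers PDGFRB (-1.28) and COL1A1 (-0.63) fell, LUM rose (1.94) and COL1A2 (-0.07) did not pass. The part of these lists in the results was not tested.

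The PAR-6 scaffolds differed in their fitted changes. Unequal change did not pass the exact permutation test (adjusted p = 0.3 for PARD6A against PARD6G and against PARD6B). With 3 against 3 arrays the smallest p of that test is 0.1. PARD6A and PARD6B, which hold atypical PKC at the apical side and bind CDC42, fell by more than 2-fold, and PARD6G rose slightly, a call that most alternative analyses did not keep. PARD6A (RefSeq NM_016948) had levels of -3.13, -3.13 and -3.51 on the 3 shCtrl arrays and -4.55, -4.47 and -4.81 on the shXBP-1s arrays. The groups did not overlap, and their gap was wider than the spread in either. From -3.25 ± 0.22 the mean dropped to -4.61 ± 0.18, a log2 fold change of -1.36 (SE 0.14, 95% interval -1.68 to -1.03, limma adjusted p = 1.44e-04), or 2.56-fold lower. This probe was dim: background-subtracted signals were 78.7, 87.2 and 66.2 in shCtrl and 42.1, 40.3 and 28.2 in shXBP-1s, which was 13.98 to 16.2 times and 4.90 to 6.77 times the lowest signal well above background on the same array. With another background correction (normexp, under which the median of all probes moved from -0.02 to -0.41) the log2 fold change was -1.13 with an adjusted p of 0.240, and with normexp and quantile scaling together it was -0.49 with an adjusted p of 5.85e-04. The study picked PARD6A from these arrays for a later assay, so its direction here is not independent evidence.

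PARD6B (NM_032521) was bright, and its fall did not depend on the background correction. Levels were 0.98, 1.09 and 1.05 in shCtrl and 0.12, 0.03 and -0.09 in shXBP-1s. All 3 shXBP-1s arrays lay below the controls by more than the spread within either group. The log2 fold change was -1.02 (SE 0.06, 95% interval -1.17 to -0.87, limma adjusted p = 1.14e-05), or 2.03-fold lower, and it lay between -1.07 and -0.91 in all 18 alternative analyses.

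PARD6G (NM_032510) had levels of -0.18, -0.53 and -0.53 in shCtrl and -0.13, -0.10 and -0.05 in shXBP-1s. One shCtrl array lay close to the shXBP-1s arrays and the others were lower. The log2 fold change was 0.32 (SE 0.10, limma adjusted p = 0.0294). The shCtrl array close to the shXBP-1s arrays was replicate 1, the only control on the same slide as the 3 shXBP-1s arrays. With the slide as a block the log2 fold change was 0.08 (adjusted p = 0.387), and the rise passed the test in 8 of the 18 alternatives. Against that control alone PARD6A and PARD6B were still lower, at -1.49 and -0.96. The call of PARD6G was also lost in 5 of the 6 analyses that left out 1 array, in which the value was 0.26 to 0.34, and held only without shCtrl replicate 1 (0.43).

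The difference between PARD6A and PARD6G on the same array went from -2.84 ± 0.22 to -4.52 ± 0.22, a change of -1.67 with no overlap between the groups (2-sided exact permutation p = 0.1, the smallest that 3 against 3 arrays can give, adjusted over 3 pairs 0.3). The same difference between PARD6A and PARD6B changed by -0.33 on the log2 scale, with overlapping groups (exact permutation p = 0.2, adjusted 0.3), and its sign turned to 0.43 with normexp and quantile scaling. The design can therefore not rank the falls of PARD6A and PARD6B.

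**Figure D1:**
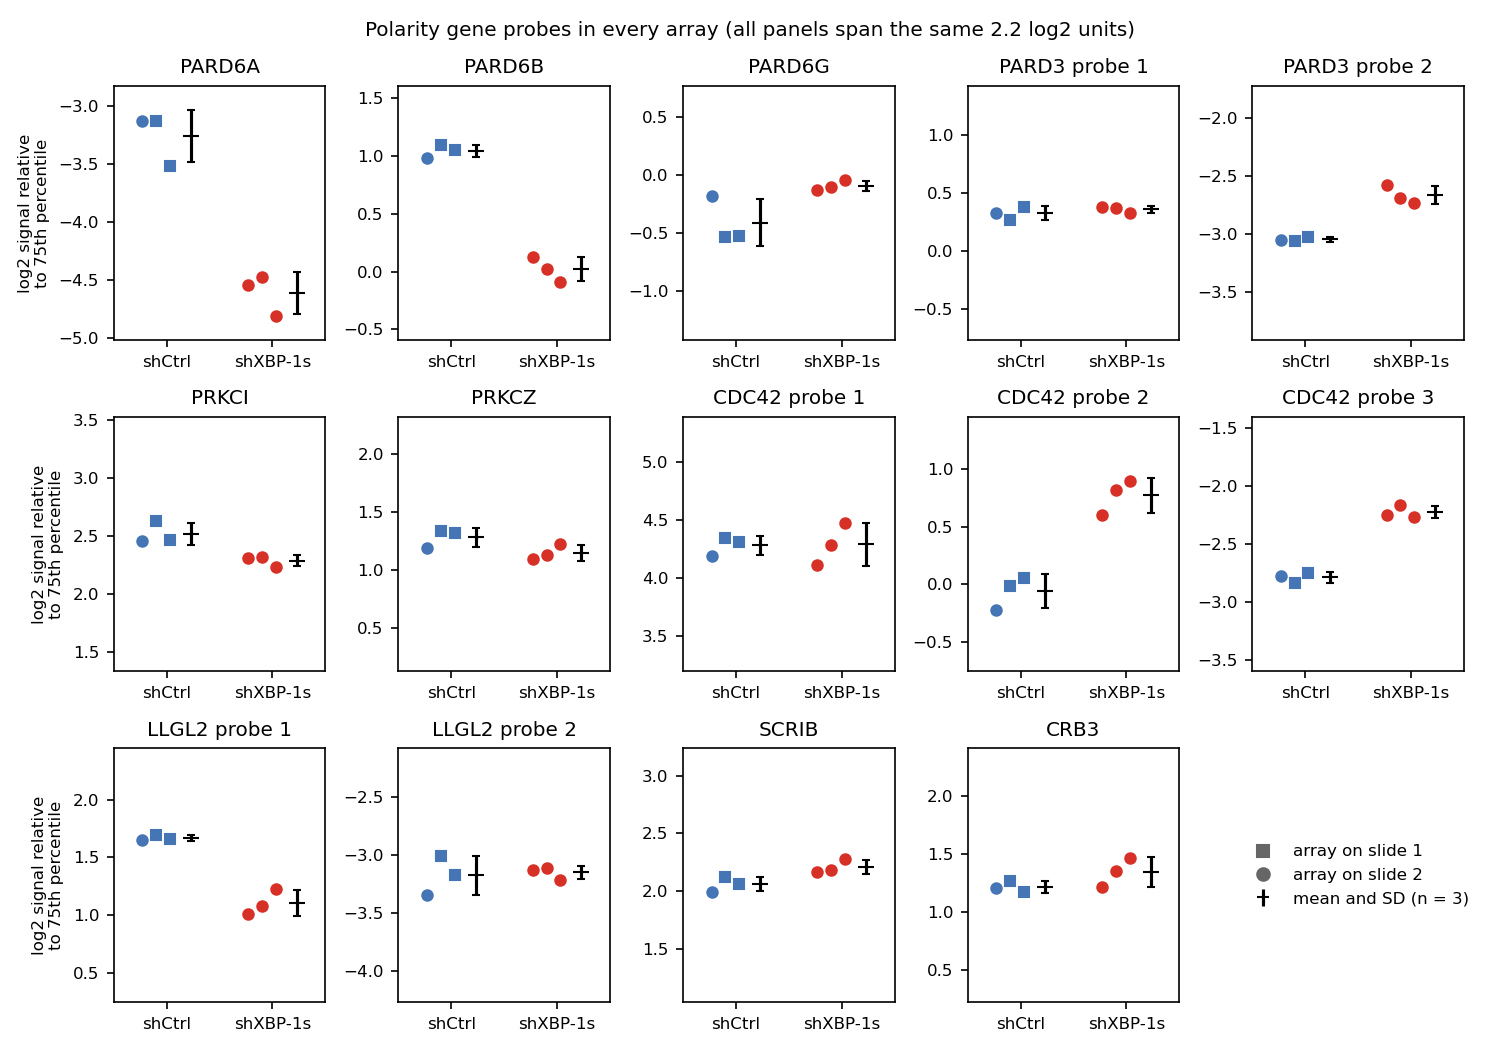
Levels of the 14 probes of the 10 polarity genes on each array, as log2 signal over the array's 75th percentile, with a panel for each probe, squares for arrays on slide 1, circles for arrays on slide 2, and the mean and SD of each group (n = 3) beside its points. PARD6A and PARD6B are lower on all 3 shXBP-1s arrays than on any shCtrl array, while 5 probes of PARD3, PRKCZ, CDC42, LLGL2 and CRB3 overlap between groups.

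PAR-3, the scaffold that recruits PAR-6 and atypical PKC to junctions, was measured by 2 probes that differed. The brighter (NM_001184792) was at 0.33, 0.27 and 0.38 in shCtrl and 0.38, 0.37 and 0.33 in shXBP-1s, with overlapping groups and a log2 fold change of 0.03 (SE 0.05, 95% interval -0.08 to 0.14, adjusted p = 0.628). The dimmer (NM_019619) was at -3.05, -3.06 and -3.02 in shCtrl and -2.57, -2.69 and -2.73 in shXBP-1s. It rose by 0.38 (SE 0.07, limma adjusted p = 0.00256), with all 3 knockdown arrays above the controls, but under normexp it was -0.25. This rise passed the test in 17 of the 18 alternatives, with normexp the exception.

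The atypical PKCs, the kinases of the PAR complex, moved little. PRKCI (PKC iota, NM_002740) had levels of 2.45, 2.63 and 2.47 in shCtrl and 2.31, 2.32 and 2.23 in shXBP-1s, and fell by 0.23 on the log2 scale (SE 0.06, limma adjusted p = 0.0158), though under normexp it was at 0.0057. The gap between the groups was smaller than the spread of the shCtrl arrays, and the value blocked by slide was -0.17 with an adjusted p of 0.166. PRKCZ (PKC zeta, NM_002744) had levels of 1.19, 1.34 and 1.32 in shCtrl and 1.09, 1.13 and 1.23 in shXBP-1s, which overlapped, with a log2 fold change of -0.13 (SE 0.06, 95% interval -0.27 to 0.01, adjusted p = 0.113). PRKCI changed by -0.10 relative to PRKCZ (exact permutation p = 0.3, adjusted 0.3).

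CDC42, the GTPase that binds PAR-6 and frees the bound kinase, had 3 probes with different outcomes. The brightest (NM_001039802) was at 4.19, 4.34 and 4.31 in shCtrl and 4.11, 4.28 and 4.48 in shXBP-1s, which overlapped (log2 fold change 0.01, SE 0.09, 95% interval -0.21 to 0.23, adjusted p = 0.947). Another probe annotated to the same transcript was at -0.23, -0.01 and 0.06 in shCtrl and 0.60, 0.81 and 0.89 in shXBP-1s. It rose by 0.83 (SE 0.10, 95% interval 0.61 to 1.05, limma adjusted p = 2.62e-04), without overlap and in all 18 alternatives. The probe of a different transcript record (NM_044472) rose by 0.56 (SE 0.06, limma adjusted p = 1.96e-04), from -2.78, -2.84 and -2.75 to -2.25, -2.17 and -2.27, but was at -0.08 under normexp. Its rise passed the test in 17 of the 18 alternatives, with normexp the exception.

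Such disagreement was seen in each member with several probes. LLGL2 was the other: its brighter probe (NM_001031803) was at 1.65, 1.69 and 1.66 in shCtrl and 1.01, 1.08 and 1.23 in shXBP-1s, and fell by 0.56 on the log2 scale (SE 0.06, limma adjusted p = 1.86e-04), also in all 18 alternatives. Its dimmer probe (NM_001015002) was at -3.34, -3.01 and -3.17 against -3.13, -3.11 and -3.22, with a log2 fold change of 0.02 (SE 0.10, 95% interval -0.20 to 0.25, adjusted p = 0.865). For the 5 pairs of probes within PARD3, CDC42 and LLGL2, a comparison made after their values were seen, the difference between the probes changed without overlap between the groups. These changes, the brighter probe less the dimmer, were -0.35 for PARD3, -0.59 for LLGL2 and -0.82, -0.55 and 0.27 for CDC42, each with an exact permutation p of 0.1 (adjusted over 5 pairs 0.1). The share of such pairs over the array is not given here, and for single probes the groups did not overlap in 52.4%. The CDC42 pairs share probes, and 0.1 is the smallest p that 3 against 3 arrays can give. Where the probes lie in their transcripts was not analysed here, so no change can be given for these genes as a whole.

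SCRIB, the scaffold that gives the basolateral module its name, and CRB3, the small membrane protein that anchors the Crumbs complex, did not pass the test. SCRIB (NM_182706) was at 2.00, 2.13 and 2.06 in shCtrl and 2.17, 2.18 and 2.28 in shXBP-1s. The groups did not overlap, but their gap was small beside the spread in each (log2 fold change 0.15, SE 0.05, 95% interval 0.02 to 0.27, adjusted p = 0.0582). With quantile scaling SCRIB was at 0.21 and passed (adjusted p = 0.00427), and it passed in 5 of the 18 alternatives. CRB3 (NM_139161) was at 1.20, 1.27 and 1.17 against 1.21, 1.36 and 1.47, with overlapping groups and a log2 fold change of 0.13 (SE 0.07, 95% interval -0.03 to 0.29, adjusted p = 0.166), and it passed in 3 of the 18 alternatives.

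**Figure D2:**
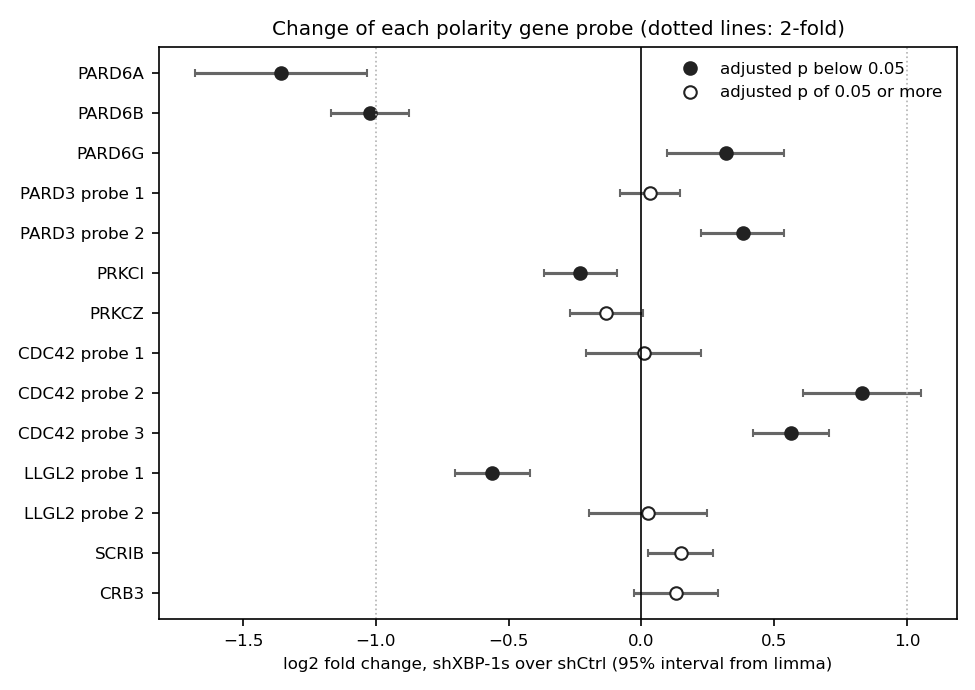
Log2 fold change of each member probe, shXBP-1s over shCtrl, with the 95% interval from limma as a bar. Filled points have an adjusted p below 0.05, and dotted lines mark a 2-fold change, which PARD6A at -1.36 and PARD6B at -1.02 exceed.

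Of the 14 member probes, 4 rose and 4 fell at an adjusted p below 0.05. Over all 27624 tested probes, 18.4% rose and 23.3% fell by this rule, which is the background for the members' counts. No member probe rose by 2-fold (2.29% of all probes did) and 2 fell by 2-fold (2.61% of all probes), PARD6A and PARD6B. PARD6B was close to the 2-fold line, at -0.97 without shXBP-1s replicate 3, and it missed the line without shCtrl replicate 2 too, so that 1 member probe then fell by 2-fold. The groups did not overlap for 9 of 14 member probes and for 52.4% of all probes. The median log2 fold change was 0.03 over the members and -0.02 over all probes. Taking only a gene's brightest probe, 1 of 10 members rose, 4 fell and 2 fell by 2-fold. Among 16821 tested genes, 18.9% rose and 27.5% fell, and 2.3% rose and 2.88% fell by 2-fold.

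**Figure D3:**
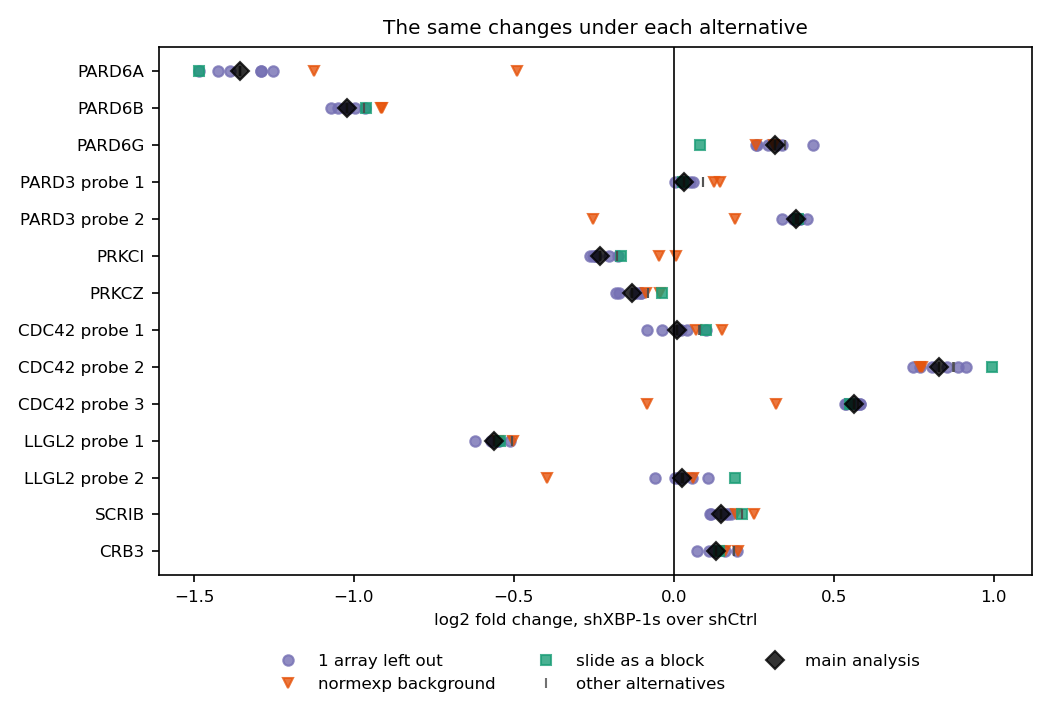
Log2 fold change of each member probe in the main analysis and in 18 alternative analyses, with 1 point for each. PARD6B keeps to a narrow range of -1.07 to -0.91, while PARD6A spans -1.49 to -0.49.

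Other polarity genes were described in 6 lists of 64 genes, of which 63 were found on the array by symbol and 58 could be tested, each by its brightest probe. Of the 58, 14 rose, 15 fell and 29 did not pass the test, against a background of 18.9% of all genes higher and 27.5% lower, and their median log2 fold change was 0.04 beside -0.04 over all genes. The 5 that were on the array but not tested (CRB1, LIN7A, JAM3, PARD3B, LLGL1) were not well above background on any array.

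The partners of Crumbs fell in 4 of 5 tested genes, with a median of -0.29. This median stayed below 0 under every scaling and with the slide as a block, while the number that fell was then 1 to 3. Under normexp the list median was -0.39, where the median of all tested probes was -0.41. LIN7B, a small adaptor of the complex, fell by 0.63 on the log2 scale (SE 0.08, limma adjusted p = 5.58e-04). PATJ, a scaffold of the tight junction, fell by 0.40 (SE 0.09), and PALS1, which links Crumbs to PATJ, fell by 0.29 (SE 0.06). With the slide as a block neither call was kept (adjusted p = 0.0954 for PATJ and 0.0594 for PALS1). Under normexp PALS1 was at -0.14 (adjusted p = 0.361). MPDZ was at -0.18 (adjusted p = 0.0327), a call lost under every other scaling and with the slide as a block, and CRB2, a paralogue of CRB3, rose by 0.45 (SE 0.15, adjusted p = 0.0465) but was at -0.88 under normexp.

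Among 10 partners of the Scribble module, 1 rose and 2 fell. DLG3, a scaffold of the discs large family, fell by 0.43 (SE 0.07, adjusted p = 0.00142), and its paralogue DLG2 rose by 0.66 (SE 0.21, adjusted p = 0.0382), with -0.06 under normexp and 0.12 with the slide as a block (adjusted p = 0.532). ERBIN, a relative of SCRIB with the same kinds of domain, fell by 0.32 (SE 0.04). Under normexp DLG3 was at -0.51 (adjusted p = 0.204) and ERBIN at -0.15 (adjusted p = 0.362), and no gene of this list passed the test. Of 4 tested genes of the PAR-3 family and of its junction anchors, NECTIN1 and NECTIN3, adhesion proteins at which PAR-3 assembles, rose by 0.77 (SE 0.07, but 0.0091 under normexp) and 0.30 (SE 0.06). JAM2, a junctional adhesion molecule, fell by 0.56 (SE 0.16, adjusted p = 0.0222), and its other probe was at -0.36 with an adjusted p of 0.0802. With the slide as a block JAM2 was at -0.27 (adjusted p = 0.266), and with normexp and quantile scaling at -0.13 (adjusted p = 0.0706).

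The list of PAR-1 and PAR-4 kinases held 1 gene that rose and 2 that fell out of 8. CAB39, which holds the PAR-4 kinase STK11 in its active complex, rose by 0.91 (SE 0.06, adjusted p = 1.48e-05) and by 1.26 on a second probe. STRADB, a pseudokinase that can take part in that complex, fell by 0.80 (SE 0.07, adjusted p = 5.12e-05) and by 0.46 on a second probe. MARK1, a PAR-1 kinase measured by a dim probe (signals of 30.4 to 44.8), fell by 0.54 (SE 0.11). Under normexp MARK1 was at -0.91 with an adjusted p of 0.432.

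Of 25 exchange factors, GTPase-activating proteins and effectors of CDC42, 9 rose and 2 fell, and the median was 0.15. Across the scalings and the slide block, 8 to 11 of them rose and 1 to 2 fell. ITSN1, an exchange factor for CDC42, rose by 1.07 (SE 0.06, adjusted p = 6.26e-06), the only list gene to rise 2-fold by its brightest probe, with 0.79 and 0.23 on its other probes, the last at an adjusted p of 0.131. The kinase PAK1, an effector of CDC42, rose by 0.66 (SE 0.05), and TIAM1, an exchange factor for RAC that binds PAR-3, rose by 0.51 (SE 0.05). CDC42SE2 and CDC42EP5, both CDC42 effectors, fell by 0.56 and 0.24. The call of CDC42EP5 was lost under normexp, with or without quantile scaling, and with the slide as a block (-0.11, adjusted p = 0.286).

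Of the 6 genes on the atypical PKC and Hippo side of polarity, 0 rose and 4 fell, with a median of -0.22. The median stayed below 0 under every scaling, and 1 gene fell under normexp or with the slide as a block. With quantile scaling, with or without normexp, and with the deposited log2 values, 1 gene rose. Under normexp the list median was -0.22, where the median of all tested probes was -0.41. AMOTL2, an angiomotin family protein, fell by 0.87 (SE 0.07, adjusted p = 5.74e-05). AMOT itself was well above background on all 3 shCtrl arrays and on 0 of 3 shXBP-1s arrays. It was at least 1.53-fold lower, a bound taken from the lowest signal well above background on each array. The limma adjusted p of 0.0149 is that of the fitted values, dim shXBP-1s signals included, and does not test the bound. The AMOT call was lost with the slide as a block (adjusted p = 0.100) and under normexp (adjusted p = 0.451). WWC1, an upstream Hippo protein that binds atypical PKC, fell by 0.18 (SE 0.05). Its call was lost under normexp (-0.05, adjusted p = 0.673) and with the slide as a block (-0.19, adjusted p = 0.0691). With the slide as a block, 7 rather than 15 list genes fell.

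**Figure D4:**
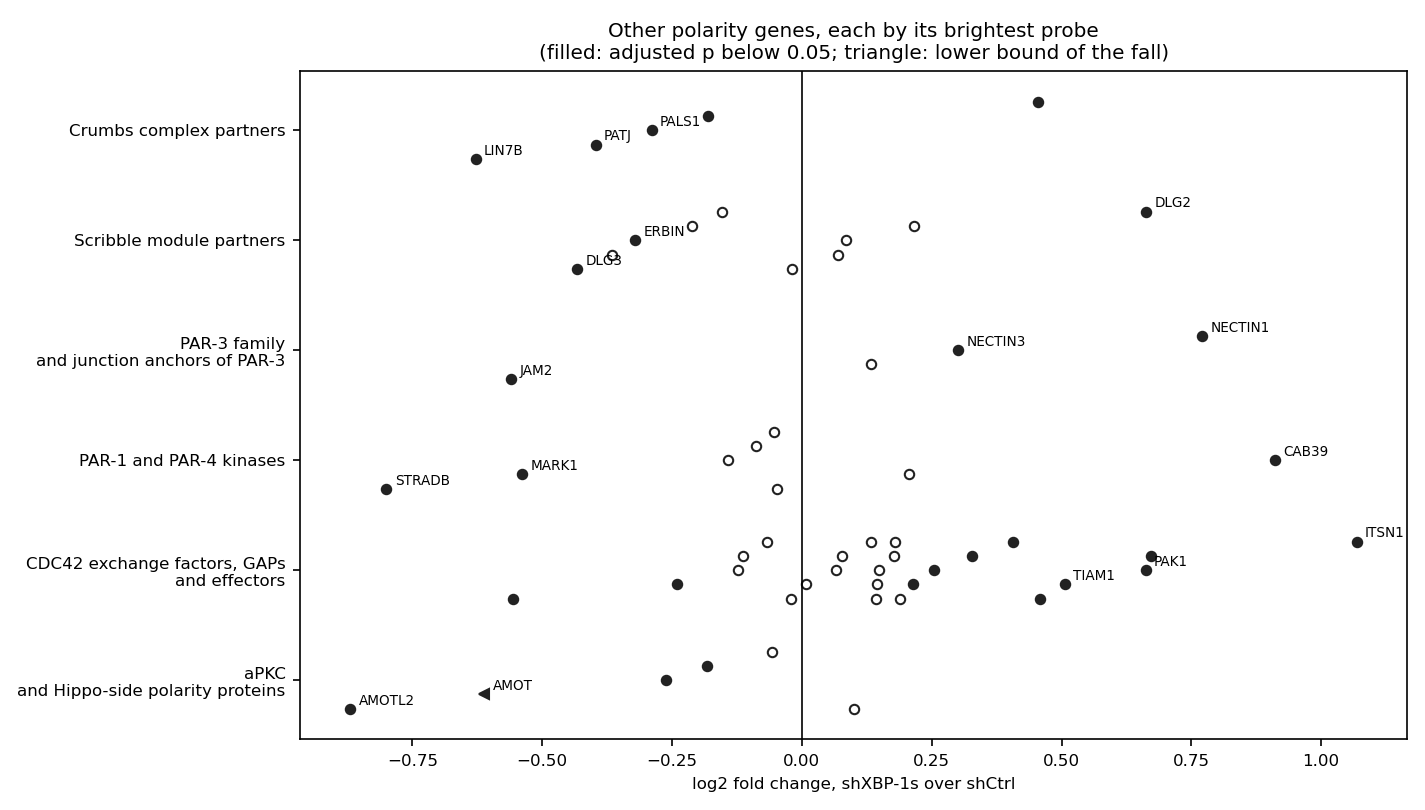
Log2 fold change, shXBP-1s over shCtrl, of 58 polarity genes outside the set, by list, with vertical offsets that carry no value. Filled points have an adjusted p below 0.05, and the triangle is the bound for AMOT. The filled points spread from AMOTL2 at -0.87 to ITSN1 at 1.07, and 4 of 5 Crumbs partners lie on the left.

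Genes most like PARD6A were sought over the 6 arrays among 16180 genes well above background throughout, by the root mean square difference of log2 levels taken from each gene's own shCtrl mean. The nearest were DBP, a clock-controlled transcription factor (0.107 log2 units, log2 fold change -1.32), OR51E2, an olfactory receptor (0.123, -1.26), IRF2BP2, a transcriptional corepressor (0.123, -1.29), SMAD6, an inhibitory SMAD of BMP signalling (0.126, -1.26), and APOBEC3G, a cytidine deaminase (0.131, -1.44). None of the 5 is a polarity gene of the lists.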

How the data were processed

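Gene expression was measured in 6 RNA samples of CAL-27 cells, 3 shCtrl and 3 shXBP-1s, grouped by the labels. The authors deposited Agilent Feature Extraction output for each array, whose spot intensity is a signal already detrended and corrected for background, and a table of log2 values that was used as an alternative. The processing notes name RMA, and how that table was made is not given in the sources used here. The labels describe a NimbleGen labelling protocol.

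The log2 signal minus the array's 75th percentile over non-control spots was averaged over each probe's unflagged spots (230 to 377 flagged per array). A probe counted as well above background on an array when over 50% of its spots were. Of 34127 probes, 19 were left out, and 27624 that passed this in every array of either group entered limma 3.58.1 (lmFit, eBayes with trend) in R 4.3.3, with Benjamini-Hochberg adjustment over all tested probes and a threshold of 0.05. The number of arrays limits the precision. Accessions gave 25771 probes a symbol through RefSeq (GRCh38.p14), and 8356 had none. The fit was tested on simulated data.

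From each list the genes named were up to 5 with the smallest p at an adjusted p below 0.05 and 2-fold, or, with fewer than 3, the next by p up to 3. MPDZ, CRB2, CDC42SE2, CDC42EP5 and WWC1 were named after their values were seen, and 1 gene that the rule names and 1 marker are not reported here. The members and lists were chosen with earlier results of these data known. Single contrasts used 2-sided exact permutation tests. The alternatives were other background corrections (normexp, offset 50, on the median signal in place of a mean), scalings, filters, tests, blocks and leaving out 1 array.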

Additional observations from a re-analysis of the deposited data

How the results depend on the processing

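XBP1, PARD6B, the CDC42 probe that rose by 0.83 and the brighter LLGL2 probe passed the test in all 18 alternatives. PARD6A, the dimmer PARD3 probe and the dimmest CDC42 probe passed in 17. Normexp moved the median of all tested probes to -0.41, and there PARD6A was -1.13 (adjusted p = 0.240), 2 member probes rose and 2 fell, and 5 list genes fell. Member probes lower by 2-fold numbered 0 with normexp, with or without quantile scaling, and 1 with quantile scaling, the deposited log2 values or the slide block, which left 7 list genes lower. At 2-fold, 1 list gene rose and 1 fell, the latter AMOT by its fitted value. The contrast of PARD6A and PARD6B turned to 0.43 with normexp and quantile scaling, and that of PRKCI and PRKCZ to 0.049 with normexp and 0.039 with both. Normexp also turned the dimmest probes of CDC42 (-0.085), LLGL2 (-0.40) and PARD3 (-0.25), and PRKCI (0.0057). The causes were not tested. The methods' t-test called 5320 probes higher and 6813 lower at their unadjusted threshold, and 3879 and 5330 after Benjamini-Hochberg adjustment, against 5093 and 6423 by limma.

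Leaving out 1 array gave -1.49 to -1.25 for PARD6A, -2.40 to -2.38 for XBP1, 1 to 2 member probes lower by 2-fold, 3 to 4 higher and 4 to 5 lower, and 11 to 15 list genes higher and 11 to 16 lower. The brightest CDC42 probe was -0.04 without shCtrl replicate 1 and -0.084 without shXBP-1s replicate 3 (range -0.084 to 0.10), and the dimmer LLGL2 probe -0.060 without shCtrl replicate 1 (range -0.060 to 0.11). Samples with the same number did not deviate together (r = -0.02, 0.12 and -0.12), and arrays did not all correlate best with their own number. With the replicate block 5003 probes rose and 6113 fell, PARD6A stayed at -1.36 (adjusted p = 8.47e-05), 4 member probes rose and 4 fell, and 14 list genes rose and 16 fell.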
